A study of Mus musculus with 13 samples.

Results

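The first 8 h of A-485 treatment were examined in mouse leukemia stem cells (LSC) by comparing the 2 libraries labelled LSC_A485_8h with the 2 libraries labelled LSC_A485_0h. These are 4 of the 13 RNA sequencing libraries of the series, and all genes of the deposited files entered the comparison. The LSC came from murine bone marrow and carried MLL-AF10, a fusion of the histone methyltransferase MLL with the DOT1L-binding protein AF10, and the leukemia cells were cultured in RPMI medium with serum and WEHI-conditioned medium, a source of interleukin 3. The 8 h group had received A-485 for 8 h and the 0 h group was the start of the same time course, so that both share the oncogene and the culture medium. The labels give no vehicle-treated group, no dose, no strain, no sex or age of the mice, and no word on whether the LSC are 1 clone, and do not say that the libraries of a group came from separate cultures. The p-values below therefore measure only the spread between libraries of the same time, pooled over the 10 libraries of the time course. That spread may be technical.

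A-485 is a small molecule that occupies the acetyl-CoA site of the paralogous acetyltransferases p300 and CBP. Both enzymes are brought to enhancers and promoters by transcription factors and acetylate histone H3 and many other proteins there. In blood cells they are coactivators of lineage factors such as MYB and the C/EBP proteins, and in most tissues also of factors that answer to a signal, such as HIF-1, the sterol regulatory factors and the clock proteins.

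Total expected counts were 8372220 and 8709869 in the 8 h libraries and 9763278 and 8639938 in the 0 h libraries, giving replicate 1 before replicate 2 as in all pairs of values below. Of 24328 genes, 11119 passed the filter on low counts, and the edgeR quasi-likelihood test was fitted to all 10 libraries of the time course, from 0 to 72 h. Levels are given as CPM, counts scaled to the library size with TMM factors, which equalise the bulk of genes, or as TPM, which also divides by transcript length. Changes are log2 values of 8 h over 0 h with their standard error (n = 2 libraries each), and "rose" and "fell" are used of genes that passed the test. At an adjusted p under 0.05, 1987 genes were called higher at 8 h (17.9% of those tested) and 2337 lower (21.0%), 38.9% in all. The falls were larger than the rises, with 548 genes over 4-fold lower (4.93%) and 124 over 4-fold higher (1.12%). Scaling moved this balance. Under library size alone the median log2 change of all genes tested was 0.33, against 0.01 with TMM scaling, and 4078 genes were called higher and 1520 lower. With limma on log2(TPM + 1) that median was 0.41 and the counts were 4859 and 1358. Under TMM scaling and either of these, no gene called in 1 direction was called in the other. Counts for the gene lists below under other settings are to be read beside these totals. Totals for fits without 1 library stand in the last section. Genes called lower made up 47.6% and 46.3% of TPM at 8 h, against 62.0% and 62.3% at 0 h, and genes called higher 11.2% and 12.2% of TPM at 8 h, against 5.475% and 5.486% at 0 h. Longer transcripts were more often called higher. Averaged over reads, transcripts were 3300 and 3471 nt long at 8 h, against 3128 and 3116 nt at 0 h, and 25.5% of genes in the longest quartile of transcripts were called higher, against 11.6% in the shortest. With the trend on transcript length removed, 2154 genes were called higher and 2266 lower.

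**Figure D1:**
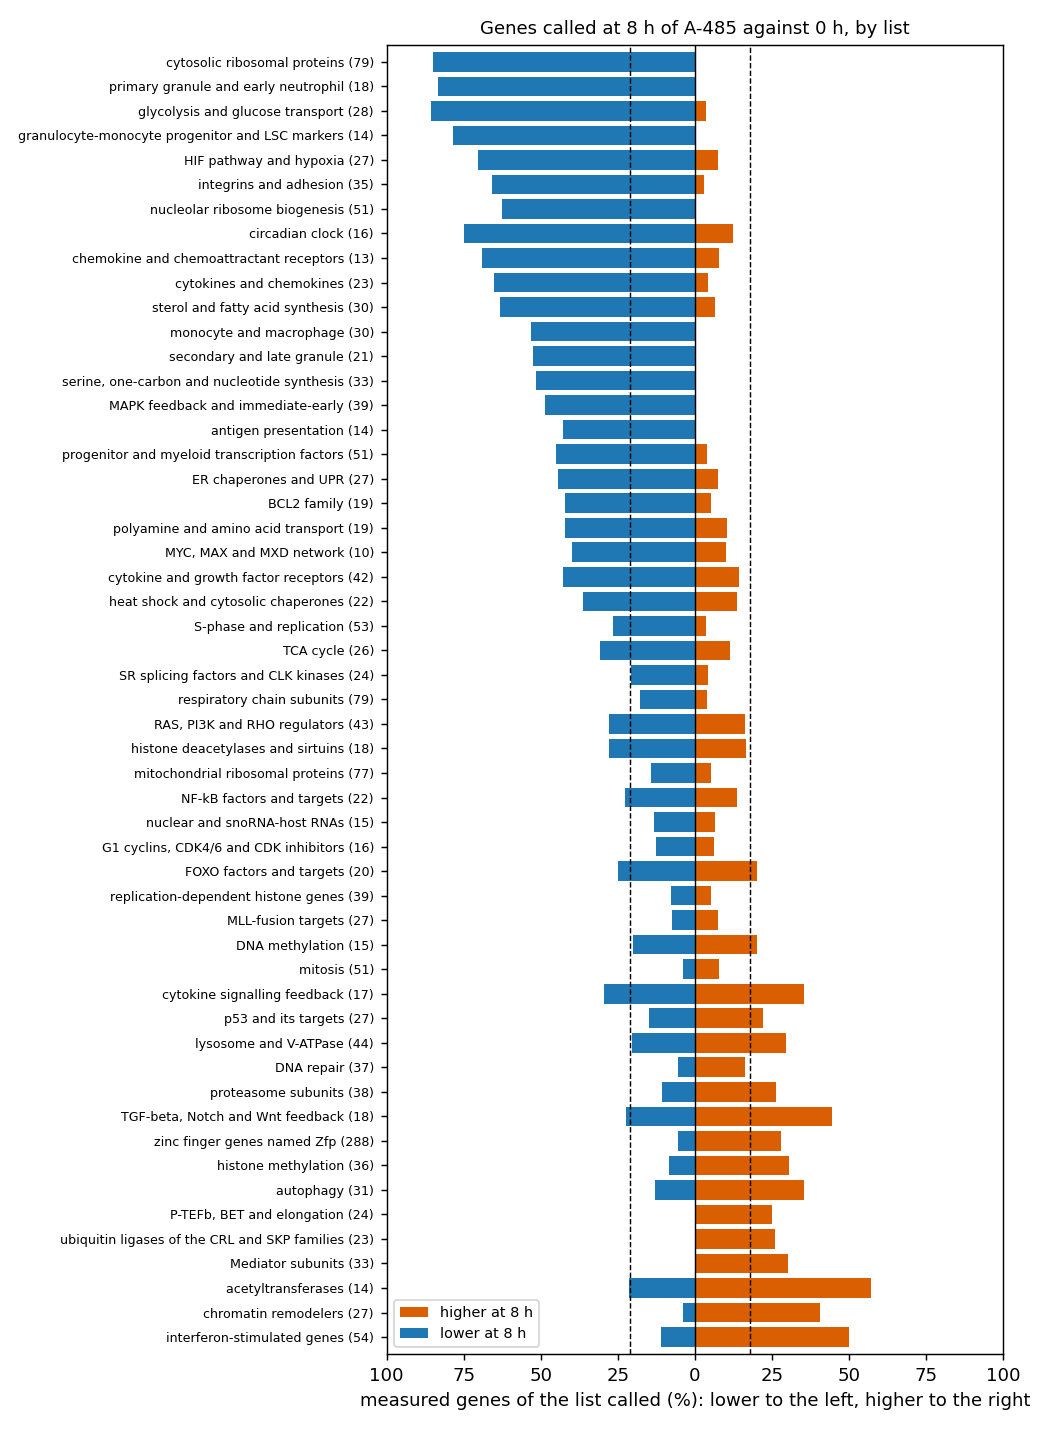
Percent of measured genes called higher (right, orange) and lower (left, blue) at 8 h of A-485 against 0 h, by gene list, with the number measured in brackets. Dashed lines mark the shares among all 11119 genes tested, 17.9% higher and 21.0% lower. Glycolysis, primary granule, ribosomal protein and clock lists stand far to the left, and interferon-stimulated and acetyltransferase genes to the right.

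The cells carried the defining transcripts of granulocyte-monocyte progenitors and LSC at 0 h. Of 14 such markers, all were measured, and 11 fell by 8 h with a median log2 change of -2.02. Kit, which binds stem cell factor at the cell surface, stood at 8.17 and 5.93 CPM at 8 h, against 202 and 199 CPM at 0 h. Cd34, a progenitor surface protein, was at 119 and 112 CPM at 8 h, against 454 and 498 CPM at 0 h. Hoxa9, a homeobox gene held active by MLL fusions, was at 113 and 152 CPM at 8 h, against 125 and 155 CPM at 0 h, with groups that overlap. Kit and Cd34 lay far below their start in both treated libraries, with log2 changes of -4.83 ± 0.36 and -2.04 ± 0.12, whereas Hoxa9 did not pass the test, with a change of -0.08 ± 0.22, edgeR adjusted p = 0.803. In bulk libraries such as these, fewer cells of a type and less RNA per cell cannot be told apart.

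Markers of other blood lineages differed in level, and all those called were lower. B-cell markers summed to 1.01 and 3.73 TPM at 8 h, against 0.920 and 1.15 TPM at 0 h, with none of 14 reaching the filter, and the class II genes H2-Aa, H2-Ab1 and H2-Eb1, which define antigen-presenting cells, had at most 7 counts in any of the 4 libraries. T- and NK-cell markers summed to 36.9 and 28.4 TPM at 8 h, against 204 and 108 TPM at 0 h, most of it at 0 h Nkg7, a granule membrane gene also used by myeloid cells, which fell (-3.75 ± 0.69), a call lost only with limma on log2(TPM + 0.1), among the settings tried (-3.36, adjusted p = 0.0717). Of 9 measured mast cell, basophil and eosinophil markers, 5 fell. Their summed level was 202 and 56.9 TPM at 8 h, against 507 and 693 TPM at 0 h, so that the 8 h libraries differed from each other as well as from 0 h. Siglecf, an eosinophil surface lectin, was at 1.73 and 1.12 CPM at 8 h, against 38.5 and 28.1 CPM at 0 h. Hdc, which makes histamine, was at 30.3 and 24.3 CPM at 8 h, against 118 and 119.8 CPM at 0 h. These markers moved with the granule genes described below, and their part in that result was not tested. The count of falls was 3 without 8 h replicate 2, 2 without 0 h replicate 1 and 3 without 0 h replicate 2. Erythroid markers summed to 254 and 1029 TPM at 8 h, against 641 and 649 TPM at 0 h with 1 of 6 measured members called, Tfrc, the transferrin receptor, which fell (-2.32 ± 0.29). Megakaryocyte markers summed to 107 and 251 TPM at 8 h, against 190.5 and 170.5 TPM at 0 h. In both of these sums 8 h replicate 2 lay above the 0 h libraries and replicate 1 below them. Of 6 megakaryocyte and 3 stromal markers measured, 1 each was called, both lower.

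Transcripts of the drug's targets rose. Of 14 measured lysine and N-terminal acetyltransferase genes and their partners, 8 rose and 3 fell, with a median log2 change of 0.56. Crebbp, which encodes CBP, was at 132 and 159 CPM at 8 h, against 47.3 and 44.2 CPM at 0 h. Ep300, which encodes p300, was at 344 and 379 CPM at 8 h, against 148 and 162 CPM at 0 h. In both genes each treated library was over 2-fold above each 0 h library. Kat6b, a MYST-family acetyltransferase of histone H3, rose by 1.18 ± 0.13 and Kat2b (PCAF) by 1.12 ± 0.13 on the log2 scale, and the nuclear receptor coactivator Ncoa3 by 0.88 ± 0.13. Naa10, a catalytic subunit of the N-terminal acetyltransferase NatA, fell (-0.83 ± 0.14). The scaffold gene Brpf3, whose protein assembles MYST acetyltransferases, was at 75.2 and 96.9 CPM at 8 h, against 27.7 and 18.4 CPM at 0 h, among the 15 largest rises of well expressed genes.

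Most genes of the step from paused to elongating RNA polymerase did not pass the test, and those that did were higher. Hexim1, the inhibitor that holds the elongation kinase P-TEFb in an inactive particle, was at 319 and 309.5 CPM at 8 h, against 97.6 and 113 CPM at 0 h, a log2 change of 1.58 ± 0.12, edgeR adjusted p = 5.77e-05. Both 8 h libraries stood far above both 0 h libraries. Of 24 genes of P-TEFb, BET readers and elongation factors, 6 rose (25%) and 0 fell, beside 17.9% and 21.0% of all genes tested. Next after Hexim1 came Cdk12 (0.89 ± 0.15) and Cdk13 (0.66 ± 0.14). These 2 kinases phosphorylate the polymerase tail. The count of rises was 3 without 8 h replicate 2 and 3 and 3 without 0 h replicates 1 and 2. Of 33 Mediator subunits, 10 rose and 0 fell, led by Ccnc (1.13 ± 0.15) and Med13 (0.97 ± 0.17) of the kinase module and by Med30 (1.03 ± 0.22), with 5 rises without 8 h replicate 2 and 6 without 0 h replicate 1.

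Remodelers, histone methylation genes and Zfp genes were more often higher than lower, and deacetylases moved both ways. Of 27 remodeler genes 11 rose and 1 fell. Srcap, which deposits the variant H2A.Z, was at 214 and 293 CPM at 8 h, against 131 and 129.5 CPM at 0 h. Chd7, the 1 remodeler that fell, was at 106 and 112 CPM at 8 h, against 225 and 235 CPM at 0 h. Of 36 genes for histone methylation 11 rose and 3 fell, with Eed, a core subunit of the repressive complex PRC2, up by 1.04 ± 0.16, Nsd1, a methyltransferase for lysine 36 of H3, up by 0.92 ± 0.14, and Kdm6b, a demethylase for lysine 27, down (-1.39 ± 0.17). In these 2 lists, without 8 h replicate 2, the rises numbered 4 and 5. Without 0 h replicate 1 they were 4 and 7, and without 0 h replicate 2 5 and 7. Among deacetylases 3 of 18 rose (16.7%) and 5 fell (27.8%), shares near the 17.9% and 21.0% of all genes tested. Under library size alone 5 rose and 4 fell, and with limma on log2(TPM + 1) 7 rose and 2 fell. Hdac6, a mainly cytoplasmic enzyme that acts on tubulin, rose (1.18 ± 0.19), and Sirt1 rose (0.92 ± 0.16), while Hdac7, a class IIa member, fell (-2.16 ± 0.20) as did the mitochondrial Sirt3 (-2.12 ± 0.22). The falls numbered 3 without 8 h replicate 2 and 3 without 0 h replicate 1. Of 288 zinc finger genes named Zfp, 80 rose and 16 fell, with a median of 0.34. The counts were between 42 and 45 rises and between 4 and 7 falls when 8 h replicate 2 or either 0 h library was left out. Under library size alone the rises were more numerous, 12 of the elongation list, 20 of Mediator, 21 of the remodelers, 24 of histone methylation and 160 of the Zfp genes, beside the shift of all genes given above. With the length trend removed 3 elongation genes rose and 1 fell, and 11 Mediator genes rose and 1 fell.

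Several of the steepest losses of well expressed genes were in adhesion and coagulation. Thbs1, which encodes the matrix protein thrombospondin 1, was at 87.5 and 28.6 CPM at 8 h, against 5982 and 5749 CPM at 0 h. F13a1, the catalytic subunit of clotting factor XIII, was at 1.73 and 0.671 CPM at 8 h, against 121 and 149.9 CPM at 0 h. F10, which encodes clotting factor X, was at 11.5 and 0.895 CPM at 8 h, against 287 and 466 CPM at 0 h. In all 3 genes both treated libraries were a small part of either 0 h library, and replicate 2 was the lower. The integrin subunit Itgb3 was at 1.38 and 0.560 CPM at 8 h, against 58.8 and 85.5 CPM at 0 h, a log2 change of -6.20 ± 1.09, edgeR adjusted p = 0.00286. Of 35 measured integrin, selectin, matrix and coagulation genes, 23 fell and 1 rose, with a median of -1.41. The fallers include the leukocyte integrin genes Itgam (-1.83 ± 0.12), Itgb2 (-1.58 ± 0.17) and Itga4 (-0.90 ± 0.10), the selectin ligand Selplg (-1.47 ± 0.15) and the hyaluronan receptor Cd44 (-2.24 ± 0.31). Itgav, an integrin subunit that pairs with Itgb3, was the 1 riser (0.67 ± 0.17), and its call was lost without 8 h replicate 2, at 0.55, adjusted p = 0.0828, and without 0 h replicate 1, at 0.66, adjusted p = 0.0705.

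Other large losses were of mixed function. Lipg, an extracellular lipase, was at 3.80 and 2.13 CPM at 8 h, against 346 and 75.6 CPM at 0 h. Its 0 h libraries differed more than 4-fold from each other and still lay far above both treated libraries. Clec12a, an inhibitory lectin receptor of myeloid cells, was at 18.99 and 17.5 CPM at 8 h, against 651 and 369.6 CPM at 0 h. Mogat2, a monoacylglycerol acyltransferase, changed by -5.09 ± 0.81 on the log2 scale, and Cntnap1, Lppr3, Plekhh2 and Bpifc changed by -5.59 ± 0.62, -5.05 ± 0.69, -4.94 ± 0.37 and -5.06 ± 0.87. Xdh, which makes uric acid, was at 8.75 and 0.783 CPM at 8 h, against 163 and 205 CPM at 0 h, and its call was lost without 8 h replicate 2, at -4.39, adjusted p = 0.0683, and without 0 h replicate 2, at -5.06, adjusted p = 0.0564.

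Glycolysis went down along its whole length. Of 28 measured genes of glucose uptake, glycolysis and lactate export, 24 fell and 1 rose, with a median log2 change of -1.83. The count of falls was 23 under library size alone and 22 with limma on TPM, and the median was -1.91 in replicate 1 and -1.78 in replicate 2. At the entry, the glucose transporter Slc2a3 was at 1.96 and 0.224 CPM at 8 h, against 153 and 84.8 CPM at 0 h, and Slc2a1 at 78.8 and 70.2 CPM at 8 h, against 184 and 189 CPM at 0 h. The first of these was nearly lost, the other reduced. Hexokinase Hk2, which traps glucose as its phosphate, was at 61.9 and 48.01 CPM at 8 h, against 263 and 277 CPM at 0 h. Pfkl, a subunit of the committing phosphofructokinase, was at 143 and 153 CPM at 8 h, against 521 and 542 CPM at 0 h. Aldoa, the aldolase that splits the sugar, was at 1075 and 961 CPM at 8 h, against 3865 and 4716 CPM at 0 h. At these 3 steps both treated libraries were far below both 0 h libraries. Gapdh, which makes the first high-energy intermediate, was at 2855 and 2862 CPM at 8 h, against 8328 and 8596 CPM at 0 h. Pgk1, the first step that yields ATP, was at 655 and 573 CPM at 8 h, against 2807 and 3106 CPM at 0 h. Eno1, the enolase, was at 889 and 949.9 CPM at 8 h, against 4812 and 5006 CPM at 0 h. The 2 treated libraries were close together in all 3. At the exit, Ldha, which reduces pyruvate to lactate, was at 453 and 346 CPM at 8 h, against 2478 and 2572 CPM at 0 h, and the lactate exporter Slc16a3 at 100.2 and 60.99 CPM at 8 h, against 469.6 and 484 CPM at 0 h. The Ldha change was -2.66 ± 0.15, edgeR adjusted p = 1.82e-05 and that of Gapdh -1.57 ± 0.09, edgeR adjusted p = 1.78e-05. Pfkfb2, a bifunctional enzyme that sets the level of a phosphofructokinase activator, was the 1 riser, at 30.3 and 26.7 CPM at 8 h, against 13.7 and 13.8 CPM at 0 h, whereas its paralog Pfkfb3 fell (-1.14 ± 0.13). Gapdh, Eno1 and several others have processed pseudogenes, so reads may be split between copies.

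**Figure D2:**
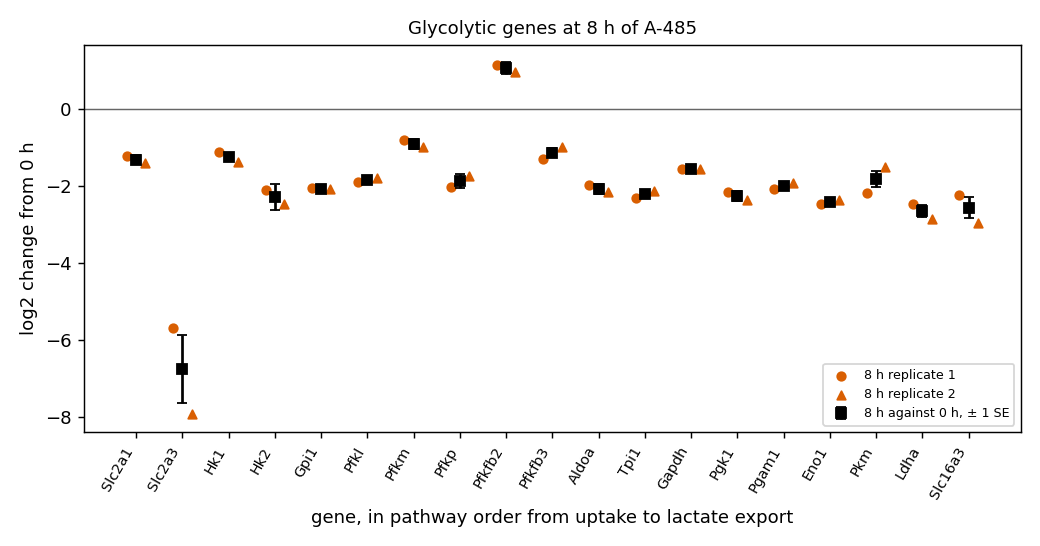
Log2 change at 8 h of A-485 against 0 h for glycolytic genes in pathway order, with bars of 1 standard error from edgeR (n = 2 libraries a time) and points for each 8 h library against the 0 h mean. All genes shown from Slc2a1 to Slc16a3 lie below 0 except Pfkfb2.

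Mitochondrial genes gave no clear direction. Of 26 genes of the TCA cycle 8 fell and 3 rose, but under library size alone these counts were 3 and 9. Idh1, the cytosolic isocitrate dehydrogenase, was at 164 and 75.6 CPM at 8 h, against 416 and 433 CPM at 0 h, and its mitochondrial counterpart Idh2 at 140.0 and 108 CPM at 8 h, against 254 and 295 CPM at 0 h. Both fell, with changes of -1.82 ± 0.40 and -1.15 ± 0.16 on the log2 scale. Of 79 respiratory chain subunit genes 14 fell and 3 rose, against 2 and 25 under library size alone, so no direction can be given for that list. With the length trend removed 17 respiratory genes rose and 7 fell. The TCA falls numbered 5, 4 and 5 without 8 h replicate 1, 0 h replicate 1 and 0 h replicate 2, and the respiratory falls 4, 8 and 4 without 8 h replicate 2, 0 h replicate 1 and 0 h replicate 2.

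Genes that answer to the hypoxia factor HIF-1 fell beside glycolysis. HIF-1 is a pair of an oxygen-labile subunit and ARNT that binds a short core element and recruits p300 and CBP. Of 27 measured genes of the HIF pathway and its known targets outside glycolysis, 19 fell and 2 rose, with a median of -1.49. Ero1l, an oxidase of the endoplasmic reticulum, was at 234 and 91.4 CPM at 8 h, against 2130.2 and 2414 CPM at 0 h. Bnip3, a mitophagy receptor, was at 87.5 and 76.99 CPM at 8 h, against 1125 and 1049 CPM at 0 h. Vegfa, the vascular growth factor, was at 26.9 and 19.4 CPM at 8 h, against 305 and 223 CPM at 0 h. All 3 were over 8-fold lower in each treated library than in each 0 h library. Egln3, a prolyl hydroxylase that marks HIF subunits for decay, changed by -3.71 ± 0.20 and Car9, a carbonic anhydrase, by -3.19 ± 0.36 on the log2 scale. Hif1a, the oxygen-labile subunit, did not pass the test (-0.41 ± 0.23, edgeR adjusted p = 0.175), while Arnt rose (0.57 ± 0.11), as did Hif1an, a hydroxylase that blocks coactivator binding (0.91 ± 0.13).

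Promoter sequences show how often the HIF core lies near the start of these genes. Promoters, from 250 bases before to 50 after the start, were taken from RefSeq on build GRCm38.p6 and matched by symbol for 8980 of the 11119 genes tested (80.8%). The core ACGTGC, read on either strand, was in 44% of 25 promoters of the HIF-list genes that fell and 39.4% of 33 for the whole list, in 22.2% of 36 promoters of the glycolytic genes that fell and 20% of 45 for that whole list, against 5.91% of all 32851 promoters and 8.29% of those of genes tested. These counts describe the window. The 3 windows shown belong to genes with large falls, and capitals mark the core. They lie at chr14:45318573-45318692 (minus strand) for Ero1l, chr7:138909550-138909669 (minus strand) for Bnip3 and chr4:43506906-43507025 (plus strand) for Car9, each of 120 bases, with the nearest core beginning 64, 107 and 19 bases before the start. In Bnip3, 2 cores on opposite strands overlap.
Ero1l: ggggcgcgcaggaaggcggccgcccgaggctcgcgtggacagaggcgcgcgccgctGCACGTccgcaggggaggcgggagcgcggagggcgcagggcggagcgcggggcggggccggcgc
Bnip3: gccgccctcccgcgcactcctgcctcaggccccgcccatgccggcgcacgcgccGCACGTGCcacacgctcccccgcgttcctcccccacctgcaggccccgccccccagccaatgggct
Car9: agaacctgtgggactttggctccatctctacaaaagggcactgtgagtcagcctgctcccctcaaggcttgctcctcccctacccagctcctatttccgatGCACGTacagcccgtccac

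Most circadian clock genes fell. In the clock, CLOCK and ARNTL drive genes through E-box elements, and PER, CRY and CIART proteins, themselves products of such genes, hold them back. Of 16 measured clock genes, 12 fell and 2 rose, with a median of -1.58. Among the repressors, Per2 was at 8.52 and 1.90 CPM at 8 h, against 38.7 and 39.97 CPM at 0 h, Per1 at 12.4 and 10.3 CPM at 8 h, against 52.1 and 46.1 CPM at 0 h and Ciart at 1.27 and 1.68 CPM at 8 h, against 10.3 and 9.05 CPM at 0 h. All 3 were lower in each treated library than in each 0 h library. Dbp, an output factor, was at 5.41 and 2.80 CPM at 8 h, against 21.003 and 22.7 CPM at 0 h, and Nfil3, which competes with it for the same sites, at 26.4 and 16.1 CPM at 8 h, against 97.5 and 92.6 CPM at 0 h. Clock itself went the other way, at 32.1 and 55.2 CPM at 8 h, against 11.2 and 7.52 CPM at 0 h, a log2 change of 2.21 ± 0.42, edgeR adjusted p = 0.00424. Csnk1d, a kinase that phosphorylates PER proteins, rose as well (0.52 ± 0.10), and Cry1 did not pass the test (-0.56 ± 0.40, edgeR adjusted p = 0.291). Arntl fell a little (-0.46 ± 0.15, edgeR adjusted p = 0.0426), and this call held only with RLE factors and under the stricter filter on low counts. It was lost under all other settings tried, for example with DESeq2 (-0.46, adjusted p = 0.102) and when any 1 of the 4 libraries was left out. The time of day of either harvest is not given, and its part in these values cannot be told apart from that of treatment.

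The E-box CACGTG, which reads the same on both strands, was in 25% of 16 promoters, from 10 genes, of the clock genes that fell. It was in 23.8% of 21 for the whole clock list, against 7.15% of all promoters and 10.1% of those of genes tested. Such shares were not particular to the clock list, with 25.6% for the lysosome list, 21.8% for nucleolar genes and 20% for MAPK feedback genes. The other lists examined had from 1.82% to 15.2%. The HIF core was in 31.2% of the same 16 promoters. The E-box can overlap the HIF core, since CACGTGC holds both. Windows of 120 bases are shown for Ciart, whose window holds 3 of them, and for Per1, with the E-box in capitals. They lie at chr3:95882229-95882348 (minus strand) for Ciart and chr11:69098727-69098846 (plus strand) for Per1, and the nearest E-box begins 44 and 166 bases before the start.
Ciart: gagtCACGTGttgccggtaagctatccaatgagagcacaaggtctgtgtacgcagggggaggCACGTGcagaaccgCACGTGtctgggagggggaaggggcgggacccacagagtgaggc
Per1: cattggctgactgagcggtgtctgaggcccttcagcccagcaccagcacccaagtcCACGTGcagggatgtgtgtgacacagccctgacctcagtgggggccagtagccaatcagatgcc

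**Figure D3:**
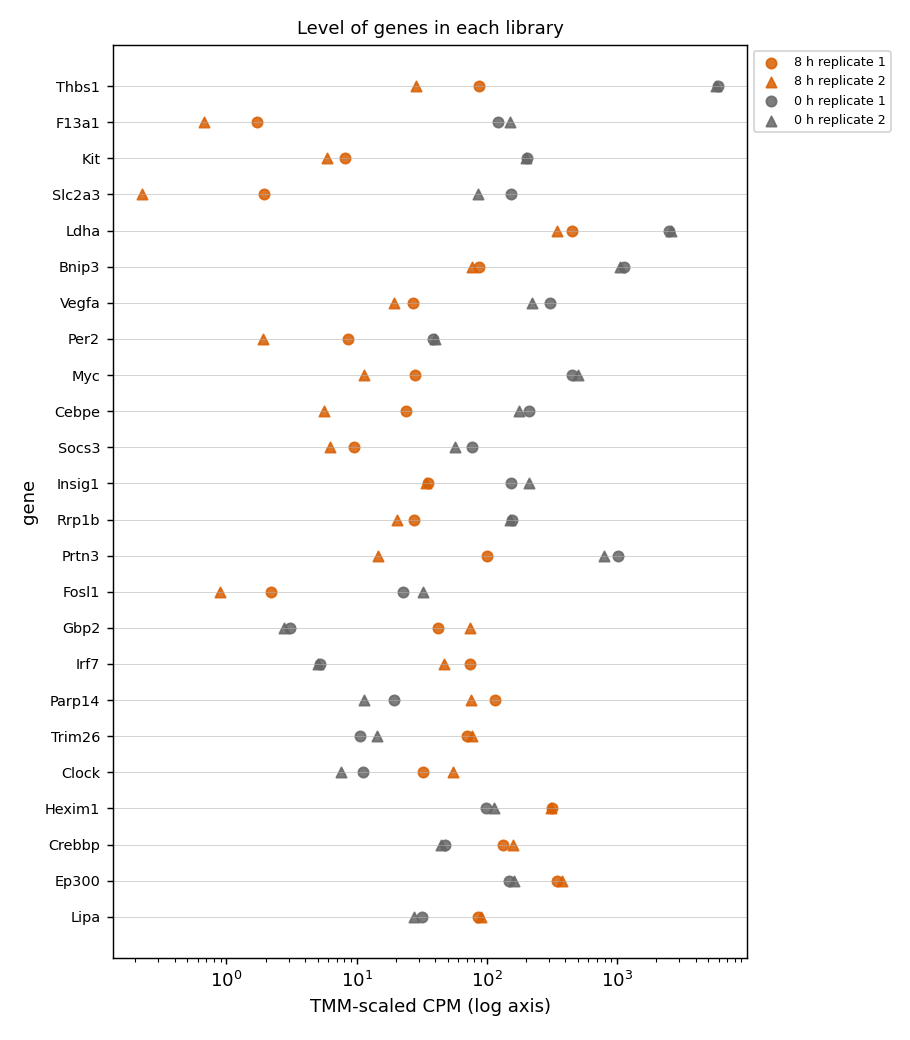
Level in each library, in TMM-scaled CPM on a log axis, of genes from the groups described, with 8 h libraries as orange circles (replicate 1) and triangles (replicate 2) and 0 h libraries as grey ones. Losses from Thbs1 down to Fosl1 have both 8 h libraries left of both 0 h libraries, and gains from Gbp2 down to Lipa have them right of both.

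Receptors for cytokines lost more than they gained. Of 42 measured, 18 fell and 6 rose. Csf3r, the receptor of the granulocyte factor G-CSF, was at 54.3 and 39.2 CPM at 8 h, against 225 and 191 CPM at 0 h. Tnfrsf1b, a receptor for tumour necrosis factor, was at 74.9 and 38.7 CPM at 8 h, against 440.4 and 346 CPM at 0 h. Ifngr1, the ligand-binding chain for interferon gamma, was at 106 and 102 CPM at 8 h, against 505 and 443 CPM at 0 h. In all 3, both treated libraries were well below both 0 h libraries. Csf1r, the macrophage factor receptor, was at 0.575 and 0 CPM at 8 h, against 4.69 and 6.13 CPM at 0 h, and its call was lost without 8 h replicate 2, at -3.19, adjusted p = 0.14, or without either 0 h library. Tlr2, a receptor for bacterial lipoproteins, rose (1.39 ± 0.26), and so did the interferon receptor chains Ifngr2 (0.53 ± 0.11) and Ifnar1 (0.55 ± 0.10). The count of falls was 9 without 8 h replicate 2 and 10 without 0 h replicate 2, and with limma on log2(TPM + 1) 15 fell and 10 rose.

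Downstream of these receptors, several quick-response genes fell. Socs3, a feedback inhibitor of JAK kinases, was at 9.55 and 6.27 CPM at 8 h, against 76.6 and 57.2 CPM at 0 h. Pim1, a survival kinase induced by STAT5, was at 119 and 85.2 CPM at 8 h, against 483 and 428 CPM at 0 h. Pias3, which restrains STAT3, rose (1.65 ± 0.18) and so did Socs2 (0.99 ± 0.15), so that of 17 feedback genes 5 fell and 6 rose, the rises being 3 without 8 h replicate 2 and 3 without 0 h replicate 2. Of 39 immediate-early and MAPK feedback genes, 19 fell and 0 rose, with a median of -0.99. The AP-1 gene Fosl1 was at 2.19 and 0.895 CPM at 8 h, against 22.7 and 32.2 CPM at 0 h, and Dusp2, a phosphatase of MAP kinases, at 3.80 and 3.36 CPM at 8 h, against 27.8 and 22.8 CPM at 0 h. Both fell over 4-fold. Those falls numbered 12 without 8 h replicate 2, without 0 h replicate 1 or without 0 h replicate 2. Of 22 NF-kB factors and targets, 5 fell and 3 rose, shares near those of all genes tested, while under library size alone 4 fell and 7 rose and with limma on log2(TPM + 1) 3 fell and 9 rose. Bcl3, a nuclear partner of NF-kB, fell (-3.22 ± 0.52) while Nfkb2, a precursor of NF-kB p52, rose (0.78 ± 0.14). The falls there, without 8 h replicate 2 or either 0 h library, were 3, and the rises were 1 without 0 h replicate 1 and 2 without 0 h replicate 2.

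The secreted signals and the receptors that guide migration were mostly lower. Of 23 cytokine and chemokine genes 15 fell and 1 rose, with a median of -2.76. Ccl9, a myeloid chemokine of mice, was at 32.7 and 43.1 CPM at 8 h, against 453 and 381 CPM at 0 h. Tnfsf14 (LIGHT), a ligand of the tumour necrosis factor family, was at 1.61 and 1.45 CPM at 8 h, against 25.5 and 36.8 CPM at 0 h. Csf1, the macrophage growth factor, was at 26.8 and 16.003 CPM at 8 h, against 159 and 246 CPM at 0 h. In these 3 genes no treated library came within 4-fold of a 0 h library. Of 13 chemoattractant receptors 9 fell and 1 rose. Cxcr4, which retains cells in marrow, was at 61.1 and 30.2 CPM at 8 h, against 345 and 310.4 CPM at 0 h, and Cxcr2, which draws neutrophils out, at 12.4 and 7.27 CPM at 8 h, against 119 and 124 CPM at 0 h. P2ry14, a receptor for UDP-sugars, was the 1 riser, at 16.9 and 15.9 CPM at 8 h, against 3.09 and 5.29 CPM at 0 h. The receptor falls without 8 h replicate 2, 0 h replicate 1 and 0 h replicate 2 were 5, 4 and 5, and without 8 h replicate 2 the cytokine falls were 9.

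Lineage transcription factors fell more often than they rose. Of 51 measured, 23 fell and 2 rose, with a median of -0.80. Under library size alone 22 fell and 8 rose, with a median of -0.49, and with limma on log2(TPM + 1) 20 fell and 11 rose, with a median of -0.35. Cebpe, needed for late granule formation, was at 23.8 and 5.60 CPM at 8 h, against 212 and 176 CPM at 0 h. Cebpa, needed to enter the granulocyte-monocyte path, was at 179 and 179 CPM at 8 h, against 1119 and 927 CPM at 0 h. Runx1, a master factor of blood formation, was at 50.2 and 70.6 CPM at 8 h, against 290.1 and 226 CPM at 0 h. The log2 changes were -3.72 ± 0.66 for Cebpe, -2.51 ± 0.13 for Cebpa and -2.09 ± 0.25 for Runx1. The quiescence factor Klf2 fell (-3.04 ± 0.63) and so did Myb (-1.82 ± 0.21). Myc, a growth factor-driven activator of biosynthesis, was at 27.9 and 11.3 CPM at 8 h, against 447 and 497 CPM at 0 h, with replicate 2 the lower. Its antagonists Mnt and Mxi1 fell as well (-1.13 ± 0.14 and -1.05 ± 0.16), while Mxd4, another antagonist, rose (0.55 ± 0.11).

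Sterol and fatty acid synthesis went down from the sensor to the enzymes. When sterols are scarce, SREBP factors switch on this pathway. Of 30 measured genes 19 fell and 2 rose, with a median of -0.93. Insig1, the sterol-sensitive retention protein, was at 35.6 and 33.8 CPM at 8 h, against 152 and 212 CPM at 0 h. Fdps, which makes farnesyl diphosphate, was at 119.9 and 55.8 CPM at 8 h, against 339.9 and 491 CPM at 0 h. The desaturase Scd2 was at 376 and 291 CPM at 8 h, against 1436 and 1742 CPM at 0 h and Sqle, the squalene epoxidase, at 54.6 and 32.01 CPM at 8 h, against 155 and 176 CPM at 0 h. In all 4 both treated libraries were below both 0 h libraries. Ebp, a late sterol isomerase, rose (0.82 ± 0.15), and Insig2 rose by 0.49 ± 0.14, a call lost without either 8 h library (0.49, adjusted p = 0.0659 and 0.51, adjusted p = 0.0704), without 0 h replicate 2 (0.44, adjusted p = 0.102) and with the 4 libraries fitted alone.

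Genes for making ribosomes and their building blocks were lower with TMM scaling, by an amount that depended on the setting. Of 51 nucleolar genes 32 fell and 0 rose, with a median of -0.79. Rrp1b, a pre-rRNA processing factor, was at 27.5 and 20.5 CPM at 8 h, against 155 and 150.4 CPM at 0 h. Gnl3 (nucleostemin) changed by -2.02 ± 0.20 and Polr1b, a core subunit of RNA polymerase I, by -1.27 ± 0.17 on the log2 scale. With limma on TPM 20 nucleolar genes fell and 5 rose. Srm, which makes spermidine, was at 27.5 and 20.6 CPM at 8 h, against 135 and 115 CPM at 0 h, and Odc1, the rate-limiting decarboxylase of polyamine synthesis, at 99.8 and 137 CPM at 8 h, against 287 and 294 CPM at 0 h. In both, treated libraries were well below 0 h. Azin1, an activator of that decarboxylase, rose (0.65 ± 0.12) as did Oaz2, an inhibitor (0.56 ± 0.10). Slc7a5 and Slc3a2, which form an amino acid exchanger, changed by -1.80 ± 0.26 and -1.28 ± 0.14. Of 33 genes for serine, one-carbon and nucleotide synthesis 17 fell and 0 rose, led by the folate enzymes Mthfd1l (-2.93 ± 0.22) and Shmt1 (-2.37 ± 0.25) and by Impdh1 of guanine synthesis (-2.11 ± 0.14). Those falls numbered 8 under library size alone, 11 without either 8 h library and 9 without either 0 h library, and with limma on log2(TPM + 1) 7 fell and 4 rose. The median of that synthesis list was -0.515, and with limma on log2(TPM + 1) it was -0.07, where that of all genes tested was 0.41. The 79 cytosolic ribosomal protein genes had 67 falls, small ones with a median of -0.57. They numbered 16 under library size alone and 9 with limma on TPM, and 43, 44 and 32 without 8 h replicate 2, 0 h replicate 1 and 0 h replicate 2. The ribosomal protein median was -0.25 under library size alone and -0.15 with limma on log2(TPM + 1). With the length trend removed it was -0.36, and 49 fell. Rpl3, a large-subunit protein gene, was at 1886 and 1648 CPM at 8 h, against 2900.3 and 3188 CPM at 0 h. Many of these genes have processed pseudogenes, so their reads may be shared.

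Granule enzymes of early neutrophils fell steeply, and the treated libraries differed. Of 18 measured genes 15 fell and 0 rose, with a median of -2.40 in replicate 1 and -3.73 in replicate 2. Prtn3, a serine protease of primary granules, was at 99.6 and 14.7 CPM at 8 h, against 1013 and 785 CPM at 0 h. Mpo, which makes hypochlorous acid, was at 351 and 27.1 CPM at 8 h, against 3119.6 and 2308 CPM at 0 h. Elane, neutrophil elastase, was at 110.3 and 10.3 CPM at 8 h, against 819 and 640.3 CPM at 0 h. In these 3 genes both treated libraries were far below 0 h, and replicate 2 was several times lower again than replicate 1. Ctsg (-3.84 ± 0.36), Ms4a3 (-3.69 ± 0.28) and Prss57 (-4.30 ± 0.39) fell, and stayed called under every setting tried. The Mpo call was lost with DESeq2 and without 0 h replicate 1 (-3.58, adjusted p = 0.0607), and the Elane call with DESeq2, with limma on TPM, without 8 h replicate 2 (-2.72, adjusted p = 0.127) and without either 0 h library (-3.38, adjusted p = 0.134 and -3.73, adjusted p = 0.107).

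Later granule and monocyte genes were lower as well, with fewer calls. Of 21 secondary and late granule genes 11 fell and 0 rose. Lcn2 (lipocalin 2) was at 81.6 and 68.8 CPM at 8 h, against 282 and 222 CPM at 0 h. Padi4, which citrullinates histones, was at 76.9 and 74.8 CPM at 8 h, against 322 and 279.8 CPM at 0 h. Ngp, a granule protein, was at 198 and 30.9 CPM at 8 h, against 1157 and 258 CPM at 0 h, and there the 0 h libraries also differed more than 4-fold. The Ngp call was lost with DESeq2 and limma on TPM, with the 4 libraries fitted alone, without 8 h replicate 2 (-1.84, adjusted p = 0.109) and without 0 h replicate 1 (-1.14, adjusted p = 0.347). Of 30 monocyte and macrophage genes 16 fell and 0 rose. Adgre1, the antigen of F4/80, fell (-2.10 ± 0.16), as did the lysosomal glycoprotein gene Cd68 (-0.995 ± 0.20). Without 8 h replicate 2 the falls were 7 of late granule and 9 of monocyte genes, without 0 h replicate 1 they were 6 and 10, and without 0 h replicate 2 the monocyte falls were 8.

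Many interferon-stimulated genes rose. Type I interferons act through a complex of transcription factors that binds an interferon element in the promoters of antiviral genes. Of 54 measured genes 27 rose and 6 fell, with a median of 1.20. Summed over the list, transcripts were 2868 and 2942 TPM at 8 h, against 2927 and 2811 TPM at 0 h. The groups overlap in that sum, so it did not rise with the count of genes. Gbp2, a guanylate-binding protein, was at 42.01 and 74.6 CPM at 8 h, against 3.09 and 2.79 CPM at 0 h. Irf7, the factor that amplifies interferon production, was at 73.5 and 47.001 CPM at 8 h, against 5.19 and 5.01 CPM at 0 h. Ddx58 (RIG-I), a sensor of viral RNA, was at 160.1 and 169 CPM at 8 h, against 35.5 and 42.5 CPM at 0 h. Both 8 h libraries were at least 3-fold above both 0 h libraries in each, although replicate 2 was the higher for Gbp2 and replicate 1 for Irf7. Usp18, which removes ISG15 from proteins, was at 16.6 and 10.3 CPM at 8 h, against 0 and 0.836 CPM at 0 h, and Parp14, an ADP-ribosyltransferase, at 114 and 75.2 CPM at 8 h, against 19.4 and 11.3 CPM at 0 h. Cmpk2, a mitochondrial nucleotide kinase, was at 109.6 and 117 CPM at 8 h, against 23.8 and 20.5 CPM at 0 h, and Slfn8 at 71.4 and 50.2 CPM at 8 h, against 16.2 and 12.5 CPM at 0 h. Ifit1, a binder of viral RNA, was at 12.5 and 19.02 CPM at 8 h, against 0 and 0 CPM at 0 h. Among the fallers were Isg20, an exonuclease (-2.004 ± 0.33), Ifitm2, a membrane protein that hinders virus entry (-1.69 ± 0.11), and Psmb8, a subunit of the immunoproteasome (-1.26 ± 0.15). The rises numbered 21 and the falls 3 without either 0 h library.

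The interferon element (GAAA, any 2 bases, GAAA), read on either strand, was in 70.4% of 27 promoters of the interferon-stimulated genes that rose and 49.1% of 55 for the whole list, against 3.44% of all promoters and 3.15% of those of genes tested. Windows of 120 bases with the element in capitals are shown for 4 of the risers. They lie at chr19:34640750-34640869 (plus strand) for Ifit1, chr3:142620543-142620662 (plus strand) for Gbp2, chr5:92349020-92349139 (minus strand) for Cxcl10 and chr11:83020811-83020930 (minus strand) for Slfn8, and the nearest element begins 85, 59, 213 and 48 bases before the start. Ifit1 holds 2 elements in the window. Cxcl10, a chemokine, was at 2.53 and 22.6 CPM at 8 h, against 0.247 and 1.95 CPM at 0 h, high in replicate 2 alone, and its call was lost without that library (1.22, adjusted p = 0.525), without either 0 h library, with the 4 libraries fitted alone and with limma on log2(TPM + 0.1).
Ifit1: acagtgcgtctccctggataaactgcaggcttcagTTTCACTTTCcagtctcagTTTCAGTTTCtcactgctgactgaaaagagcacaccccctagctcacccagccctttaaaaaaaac
Gbp2: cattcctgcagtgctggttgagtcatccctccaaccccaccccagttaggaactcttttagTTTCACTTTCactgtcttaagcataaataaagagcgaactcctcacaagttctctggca
Cxcl10: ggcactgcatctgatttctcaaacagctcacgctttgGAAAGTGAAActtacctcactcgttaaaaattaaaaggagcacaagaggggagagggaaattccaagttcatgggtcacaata
Slfn8: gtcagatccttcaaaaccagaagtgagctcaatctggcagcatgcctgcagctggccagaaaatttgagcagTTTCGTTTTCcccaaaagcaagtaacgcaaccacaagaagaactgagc

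The remaining large gains of well expressed genes were of mixed function. Trim26, a ubiquitin ligase, was at 69.9 and 77.3 CPM at 8 h, against 10.6 and 14.3 CPM at 0 h. Trp53inp2, which takes part in autophagosome formation, was at 60.9 and 78.6 CPM at 8 h, against 9.76 and 15.04 CPM at 0 h. Cd2ap, an adaptor of the actin skeleton, was at 61.5 and 101 CPM at 8 h, against 19.03 and 22.4 CPM at 0 h. The 8 h libraries lay well above the 0 h libraries in these 3 genes. Bpnt1, a nucleotidase, rose by 2.02 ± 0.19 on the log2 scale. Pira2 and Tgtp2 rose by 2.82 ± 0.35 and 2.51 ± 0.23, but both belong to families of near-identical copies, so their levels are uncertain. Nckap1, of the WAVE actin complex, was at 33.6 and 103 CPM at 8 h, against 8.15 and 8.08 CPM at 0 h, and its call was lost without 8 h replicate 2 (2.05, adjusted p = 0.0624) and without either 0 h library. Among the 10 most abundant risers by TPM were Ubb, which encodes ubiquitin, at 4210.3 and 4934 TPM at 8 h, against 2180.4 and 2522 TPM at 0 h, and Rbm3, an RNA-binding protein induced by cold, at 992 and 1108 TPM at 8 h, against 416 and 459.6 TPM at 0 h. H3f3b, which encodes the variant histone H3.3, was at 822 and 876 TPM at 8 h, against 395 and 409 TPM at 0 h. In all 3 both treated libraries were above both 0 h libraries, and the log2 changes in scaled counts were 0.51 ± 0.14, 0.82 ± 0.10 and 0.63 ± 0.10. The Ubb call was lost without 8 h replicate 2 (0.44, adjusted p = 0.0944) and without 0 h replicate 1 (0.45, adjusted p = 0.0995).

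Genes of the lysosome moved both ways. Of 44 measured, 13 rose (29.5%) and 9 fell (20.5%), beside 17.9% and 21.0% of all genes tested. Lipa, the acid lipase that frees cholesterol from esters, was at 85.5 and 90.2 CPM at 8 h, against 31.9 and 27.6 CPM at 0 h. Mcoln1, a calcium channel of the lysosome, rose (1.000 ± 0.14), and so did Tfe3, a factor for lysosomal genes (1.16 ± 0.16), and Atp6v0a2, a subunit of the proton pump (1.13 ± 0.23). Of the genes that fell, Grn (progranulin, a lysosomal cofactor) changed by -1.25 ± 0.10, and the hydrolases Galc by -1.32 ± 0.25 and Hexa by -0.90 ± 0.13 on the log2 scale. Without 0 h replicate 2 the falls numbered 5, and under library size alone 20 rose and 5 fell. Of 31 autophagy genes 11 rose and 4 fell, with Gabarapl2, which coats autophagosomes, up by 1.04 ± 0.12 and Atg12, part of the coating machinery, down (-1.50 ± 0.19). The median log2 change of the autophagy list was 0.22, and it was 0.25 without 8 h replicate 2 and 0.26 without 0 h replicate 1. Under library size alone 17 autophagy genes rose and 3 fell, with a median of 0.53. In that setting 4078 of all genes tested were called higher and 1520 lower, with a median of 0.33. Psmc5, a subunit of the regulatory cap of the proteasome, rose by 0.93 ± 0.15. Of 38 proteasome genes 10 rose (26.3%) and 4 fell (10.5%), beside 17.9% and 21.0% of all genes tested. Under library size alone 25 rose and 2 fell. Without 8 h replicate 2 or either 0 h library 6 rose and 2 fell.

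Cell-cycle and survival genes differed from list to list. Of 51 mitotic genes 4 rose (7.84%) and 2 fell (3.92%), below the 17.9% and 21.0% of all genes tested. Their median was 0.51, and it was above 0 under every setting tried, from 0.35 to 0.95. When the 4 libraries were fitted alone 24 rose and 1 fell, and under library size alone 20 rose and 1 fell. Pttg1 (securin), which guards sister chromatids, was at 36.7 and 39.3 CPM at 8 h, against 12.6 and 12.4 CPM at 0 h. Mybl2, an activator of mitotic genes, was at 42.2 and 36.4 CPM at 8 h, against 126 and 128 CPM at 0 h. The first rose and the other fell, each with groups well apart. Of 53 replication genes 14 fell and 2 rose. E2f2, a factor for S-phase entry, was at 15.1 and 13.4 CPM at 8 h, against 56.7 and 54.5 CPM at 0 h, and Mcm6, of the replicative helicase, at 332 and 262 CPM at 8 h, against 707 and 654 CPM at 0 h. Without 8 h replicate 2 and without 0 h replicates 1 and 2 the falls there numbered 6, 5 and 8. With scaling this balance turned, as under library size alone 11 rose and 7 fell and with limma on log2(TPM + 1) 15 rose and 6 fell, so no direction can be given for that list. Cdk4 fell (-0.78 ± 0.09) and so did Ccnd3, a cyclin that binds it (-1.04 ± 0.18), whereas Cdk6 did not pass the test (-1.03 ± 0.39, edgeR adjusted p = 0.0657), with 0 h libraries at 108 and 65.2 CPM. Among p53 targets 6 of 27 rose (22.2%) and 4 fell (14.8%), shares near the 17.9% and 21.0% of all genes tested. The largest rise was of Rrm2b, which supplies nucleotides for repair (1.39 ± 0.22), and the largest fall of Xpc, a damage recognition gene (-1.63 ± 0.14). Without 0 h replicate 2 the p53-target falls were 2, and with limma on log2(TPM + 1) 10 rose and 3 fell. Of 19 genes of the BCL2 family 8 fell and 1 rose. The death-promoting Bmf (-2.14 ± 0.30) and Bid (-1.74 ± 0.17) fell along with Bnip3, while the survival gene Mcl1 did not pass the test (0.26 ± 0.10, edgeR adjusted p = 0.0819). Without 0 h replicate 2 the BCL2-family falls were 5, and the balance of that list rested on scaling, since under library size alone 5 fell and 5 rose and with limma on log2(TPM + 1) 6 fell and 6 rose.

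Among targets of MLL fusions few genes were called. Of 27 measured, 2 rose and 2 fell (7.41% each), below the 17.9% and 21.0% of all genes tested, while under library size alone 6 rose. The median change was -0.37 in replicate 1 and 0.38 in replicate 2, so that the treated libraries stood on opposite sides of 0 h. Pbx3, a partner of HOXA9, rose (1.07 ± 0.14). Meis1, another partner, was at 51.6 and 76.9 CPM at 8 h, against 35.3 and 55.99 CPM at 0 h, with groups that overlap. Wnt2 and Susd5, of the same list, were singled out after their values were seen. Wnt2 was at 0.806 and 67.1 CPM at 8 h, against 3.58 and 2.65 CPM at 0 h, and Susd5 was at 0.345 and 65.6 CPM at 8 h, against 0.741 and 2.51 CPM at 0 h. In both, 8 h replicate 2 was high and replicate 1 low.

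Several other groups moved both ways or by small counts. Of 27 genes of the endoplasmic reticulum and its stress response 12 fell and 2 rose. Calr, a calcium-binding chaperone, changed by -1.26 ± 0.24, and P4hb, a disulfide isomerase, by -1.37 ± 0.17 on the log2 scale. The falls there numbered 7 without 8 h replicate 1, without 0 h replicate 2 or under library size alone. Of 18 genes of TGF-beta, Notch and Wnt feedback 8 rose and 4 fell. Skil, which restrains SMAD factors, rose by 1.02 ± 0.15, Smad4 by 0.70 ± 0.14 and the ligase gene Smurf1 by 1.13 ± 0.15. The rises in that list, without 8 h replicate 2 or 0 h replicate 1, numbered 5 and the falls 1. Cul4b, a scaffold of cullin-based ubiquitin ligases, was at 101 and 127 CPM at 8 h, against 51.5 and 61.4 CPM at 0 h. Of 23 genes of these ligases 6 rose (26.1%) and 0 fell, beside 17.9% and 21.0% of all genes tested. Those rises numbered 3 without 0 h replicate 2 and 15 under library size alone. Of 14 antigen presentation genes 6 fell, with Tap2, a peptide transporter, at 206 and 189 CPM at 8 h, against 496 and 481 CPM at 0 h, and between 1 and 3 fell when any 1 of the 4 libraries was left out, and 3 under library size alone.

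The 2 libraries of 8 h were less alike than those of 0 h. The SD of the log2 ratio of replicate 2 over replicate 1, across the 11119 genes tested, was 0.656 at 8 h, against 0.452 at 0 h. At 8 h 923 genes were over 2-fold apart between the libraries, against 465 at 0 h, and in 644 of those 923 replicate 2 was the lower. Tested alone against 0 h, replicate 1 gave 1186 genes higher and 1613 lower (24.5% called of 11418), and replicate 2 gave 1838 higher and 2059 lower (34.1% called of 11429). Called by both alone were 987 genes higher and 1403 lower, and 0 genes were called in opposite directions. Both of these fits share the 0 h libraries and the later times, so agreement between them is partly built in. A lone library is assumed here to vary like the other times. Both treated libraries lay beyond both 0 h libraries in all 4324 called genes, beside 73.2% of all genes tested. The called genes are part of that 73.2% and were called on these same libraries, so this describes them and is no further test. Replicate 2 had the larger rise in 1328 of the 1987 genes called higher and the larger fall in 1521 of the 2337 called lower. Of the called genes, 225 differed over 2-fold between the treated libraries, 29 among the rises and 196 among the falls. The 10 with the widest gaps were Mgl2, Mpo, Elane, F10, Acpp, Cxcl10, S100a8, Prtn3, Ngp and Oasl2, of which Cxcl10 and Oasl2 rose. Mgl2, a macrophage lectin, was at 15.7 and 0.336 CPM at 8 h, against 211 and 251 CPM at 0 h, and its call was lost without 0 h replicate 2 (-4.69, adjusted p = 0.061) and with DESeq2. Oasl2 was at 12.1 and 1.79 CPM at 8 h, against 0 and 0.139 CPM at 0 h, so there replicate 1 was the higher, and its call was lost without that library (4.49, adjusted p = 0.193), without either 0 h library and with limma on log2(TPM + 1). The Acpp call was lost without either 0 h library. The S100a8 call was lost without 8 h replicate 2 or 0 h replicate 1, with the 4 libraries fitted alone, under library size alone, with DESeq2, with limma on TPM and with the length trend removed. In 25 genes, none of them called, 1 treated library was over 2-fold above and the other over 2-fold below 0 h, 15 of them high in replicate 1 and 10 in replicate 2.

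**Figure D4:**
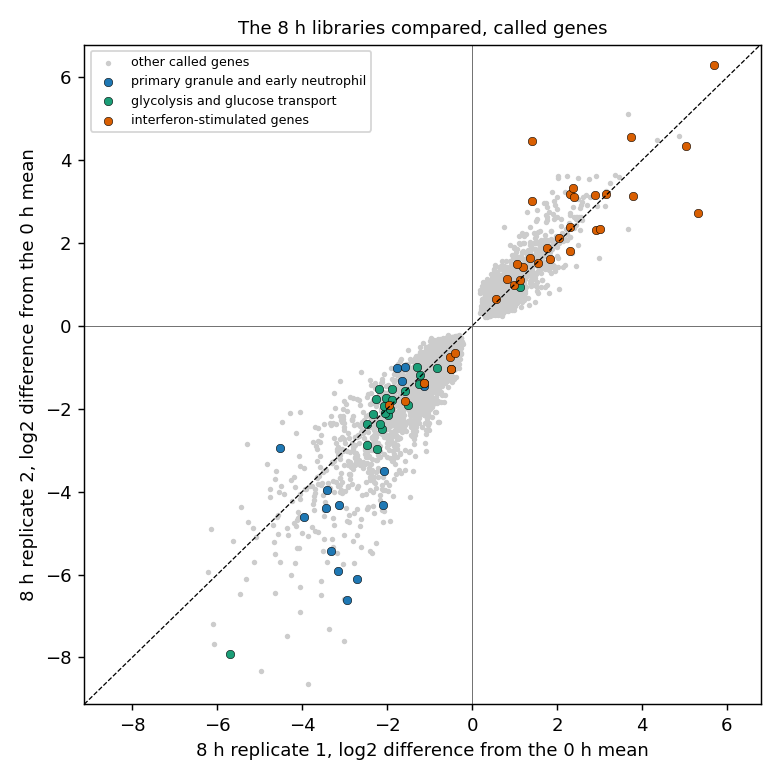
Log2 difference of each 8 h library from the 0 h mean for the 4324 called genes, replicate 1 on the horizontal and replicate 2 on the vertical axis, with the line of equality. Most glycolytic genes (green) lie near the line, interferon-stimulated genes (orange) lie on both sides of it, and many primary granule genes (blue) lie below it, lower in replicate 2.

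The gap between the treated libraries varied from group to group. Median changes were -1.91 in replicate 1 and -1.78 in replicate 2 for glycolysis, -0.84 in replicate 1 and -0.73 in replicate 2 for nucleolar genes and 1.25 in replicate 1 and 1.12 in replicate 2 for interferon-stimulated genes. They were -2.40 in replicate 1 and -3.73 in replicate 2 for primary granule genes, -1.26 in replicate 1 and -2.27 in replicate 2 for monocyte genes and -1.96 in replicate 1 and -3.75 in replicate 2 for mast cell, basophil and eosinophil markers. For cytokine receptors they were -0.56 in replicate 1 and -1.25 in replicate 2, for sterol and fatty acid synthesis -0.81 in replicate 1 and -1.08 in replicate 2, for polyamine and amino acid transport genes -0.56 in replicate 1 and -1.09 in replicate 2 and for lineage transcription factors -0.76 in replicate 1 and -0.73 in replicate 2. Summed primary granule transcripts were 5522 and 5895 TPM at 8 h, against 20220 and 18420 TPM at 0 h, and summed late granule transcripts were 3302 and 1635 TPM at 8 h, against 11090 and 4681 TPM at 0 h, with the 0 h libraries also apart in the late granule sum. The nuclear RNA Malat1, used as a sign of RNA make-up, was at 631 and 482 CPM at 8 h, against 321 and 328 CPM at 0 h, and Neat1 at 283 and 181 CPM at 8 h, against 115 and 125 CPM at 0 h, each higher in replicate 1 of 8 h. The Malat1 rise (0.78 ± 0.20) was lost without 8 h replicate 1 (0.59, adjusted p = 0.0722) and without either 0 h library, and Neat1 did not pass the test (0.95 ± 0.45, edgeR adjusted p = 0.124). Their part in the differences between these libraries was not tested.

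Some genes changed again between 8 and 24 h. Between 24 h and 8 h, 1082 genes were called higher (9.73%) and 1332 lower (12.0%), in a comparison that shares the 8 h libraries with the one above. The replicate differences of these 2 times were correlated (0.644), and the p-values of this step take no account of that. Kit went on down, averaging 1.72 CPM at 24 h and 7.05 CPM at 8 h, a log2 change of -2.01 ± 0.42, edgeR adjusted p = 0.0118. Fdps did too, averaging 21.3 CPM at 24 h and 87.9 CPM at 8 h, a change of -2.04 ± 0.36, edgeR adjusted p = 0.00581, and Pgk1 averaged 355 CPM at 24 h and 614 CPM at 8 h, a change of -0.79 ± 0.13, edgeR adjusted p = 0.00384. A few losses were smaller at 24 h. Bnip3 averaged 153 CPM at 24 h and 82.2 CPM at 8 h, a change of 0.90 ± 0.13, edgeR adjusted p = 0.00285, and Cebpa 344 CPM at 24 h and 179 CPM at 8 h, a change of 0.94 ± 0.12, edgeR adjusted p = 0.00192. Of the interferon group, Cmpk2 averaged 44.9 CPM at 24 h and 113 CPM at 8 h, a change of -1.34 ± 0.34, edgeR adjusted p = 0.0233, while for Irf7 the step did not pass the test (-0.29 ± 0.35, edgeR adjusted p = 0.593). Neither did it for Thbs1 (0.073 ± 0.68, edgeR adjusted p = 0.955), Clock (-0.023 ± 0.39, edgeR adjusted p = 0.976) or Hexim1 (-0.14 ± 0.12, edgeR adjusted p = 0.414).

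**Figure D5:**
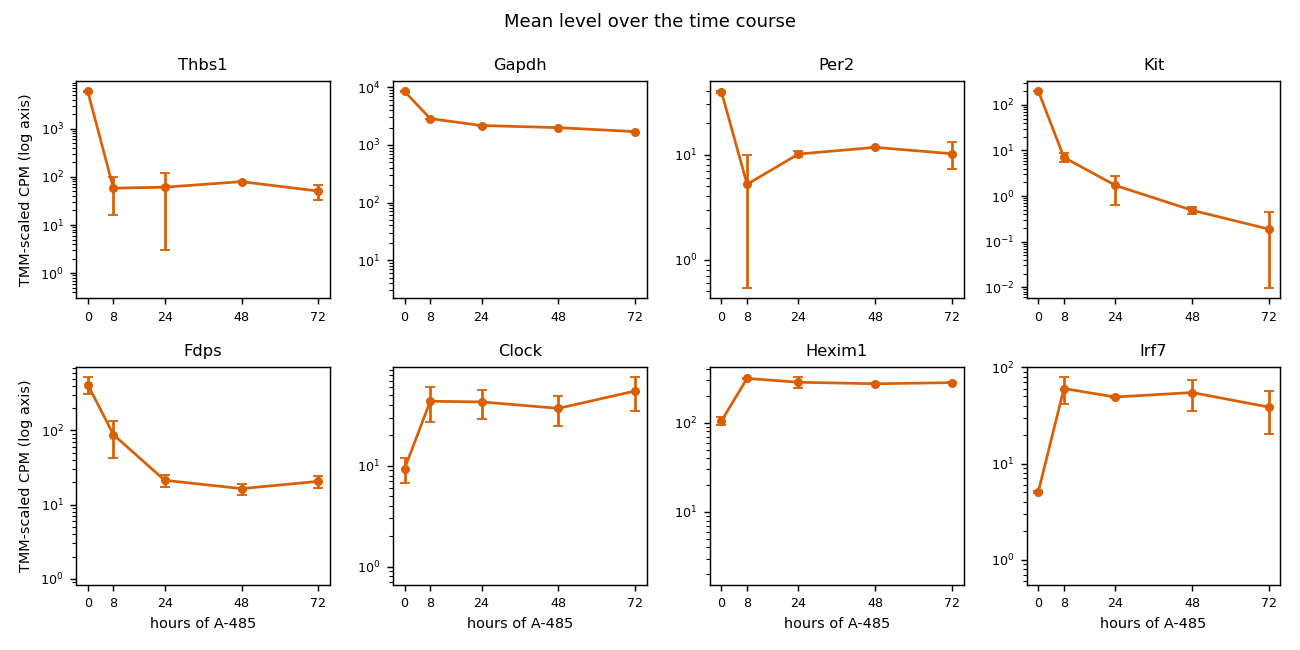
Mean level of 8 genes at 0, 8, 24, 48 and 72 h of A-485, in TMM-scaled CPM on a log axis, with bars of 1 SD (n = 2 libraries a time, lower bars cut short where they would reach 0). The step from 0 to 8 h is steep in all 8, and Kit and Fdps go on falling to 24 h.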

How the data were processed

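Per the labels, total RNA was extracted with RNeasy Plus and sequenced after a standard Illumina preparation. Per the submitters' processing notes, reads were aligned to mouse build mm9 with STAR and quantified with RSEM. For versions and settings, the sources used here name none. The deposited files hold, for each gene symbol, an expected count and a TPM value that the authors obtained from RSEM.

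From these, expected counts were rounded to whole numbers, filtered with filterByExpr and scaled by TMM. The 10 LSC_A485 libraries were fitted in 1 model with time as a factor, and 8 h was set against 0 h with the edgeR (4.0.16) quasi-likelihood test in R 4.3.3. P-values were adjusted by Benjamini-Hochberg over 11119 genes, with a threshold of 0.05. CPM are counts divided by the TMM-scaled library size, as edgeR's cpm function gives them. A prior count of 2 entered the log2 CPM of single libraries and the length trend, and was not set in the fit of the changes. The error of a change is the change divided by the root of the F statistic. TPM were tested with limma (3.58.1) on log2(TPM + 1) and log2(TPM + 0.1), and DESeq2 (1.42.0) was an alternative. Depth differed little, and arms of 2 libraries limit the precision.

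Members and gene lists were chosen with earlier results of these data known. Named genes are a fixed set, the largest and the most abundant changes, called members of each list by size, any member of lists of up to 35 measured genes, called genes whose 8 h libraries differ most, and markers of other cell types. The 3 libraries outside this time course were not used here. Some genes of these lists are not reported here.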

Additional observations from a re-analysis of the deposited data

How the results depend on the processing

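The counts of genes called moved with scaling, with limma on TPM, which changes the test and divides by length, and with the libraries used. Under library size alone 4078 genes were called higher and 1520 lower, with limma on log2(TPM + 1) 4859 and 1358, and with limma on log2(TPM + 0.1) 4897 and 1302. When 1 of the 4 libraries was left out, between 1186 and 1838 genes were called higher and between 1496 and 2059 lower, the fewest rises without 8 h replicate 2 and the fewest falls without 0 h replicate 2. RLE factors, DESeq2, the filters, the length trend and a fit of the 4 libraries alone kept both counts within 1.5 times those of the first fit. No gene called in that fit was called in the opposite direction under any alternative.

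Replicate numbers did not pair the libraries of 0 and 8 h, where the correlation across genes of the replicate differences was 0.0585. Between 8 and 24 h it was 0.644, so the 8 h replicate gap was partly shared at 24 h. It was -0.402 between 8 and 72 h and -0.408 between 24 and 72 h. Between the other times it ran from 0.0243 to 0.151. The comparisons of 8 h with 0 h and of 24 h with 8 h were fitted without a replicate block. With the replicate block 1902 genes were called higher and 2295 lower.

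Some values with no call changed sign. The median of the MLL-fusion targets was 0.28 under library size alone, 0.35 and 0.36 with limma on TPM at pseudocounts of 1 and 0.1, 0.15 under the stricter filter, 0.00867 with the length trend removed, and ran from -0.373 to 0.392 when 1 library was left out. Hoxa9 was at 0.23 under library size alone, 0.35 and 0.36 with limma on TPM, and between -0.304 and 0.133 when 1 library was left out. Hif1a was at 0.049 and 0.049 with limma on TPM. With 1 library left out, Wnt2 ran from -1.93 to 4.43 and Susd5 from -2.15 to 5.49, both lowest without 8 h replicate 2. The cause was not tested. Leaving out a library leaves 1 library at that time, which is then assumed to vary like the others.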
